A study of Mus musculus with 26 samples.

Results

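Krüppel-like factors are transcription factors with a conserved run of zinc fingers at their carboxyl end, which bind CACCC and other GC-rich boxes in promoters and enhancers. The members divide into activators and repressors by the cofactors that the rest of the protein recruits. Several are made as early responses to growth factors, glucocorticoids, TGF-beta or inflammatory stimuli, and in macrophages Klf2 and Klf4 are known as brakes on inflammatory activation and Klf6 as a promoter of it. Described here are the 8 genes Klf2, Klf3, Klf4, Klf6, Klf7, Klf9, Klf10 and Klf13, taken as the rows of exactly these names among 19549 gene rows. All 8 were found in every library.

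The libraries are RNA-seq of macrophages sorted from mammary tumours. PyMT cells, mouse mammary tumour cells driven by the polyoma middle T oncogene, had been injected into the inguinal mammary gland of female FVB mice aged 5 to 7 weeks. All 13 tumours were made in this way, with no other allele, no drug given to the mice and no tumour-free control. The macrophages were defined by the gate, CD11b and F4/80 positive and Ly6G negative, and were kept in cycloheximide, which holds ribosomes on mRNA. About 10 percent of the cells of each tumour gave the total mRNA library. The rest were run on a sucrose gradient, and mRNA carrying 3 or more ribosomes gave the polysome library of the same tumour. A polysome library therefore reports the make-up of the heavily translated pool and not a rate of protein synthesis. The labels give each tumour's weight and 1 of 2 experimental batches. Tumours were divided at 1000 mg into 8 small ones, of 467 to 841.8 mg, and 5 large ones, of 1504 to 2245 mg. Batch 1 holds the small tumours T2, T3, T15, T16 and T19 and the large tumours T4 and T22. Batch 2 holds the small tumours ER1 to ER3 and the large tumours LR1 to LR3. Each tumour was a separate sample, so the p-values measure the spread between tumours. The labels do not say whether the injected cells were 1 clone.

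Total mRNA libraries held 18018519 to 55609113 counts and polysome libraries 7034173 to 28257436. Levels are given as CPM, the count of a gene divided by the library's total after TMM scaling and set to a common size. The 10 macrophage markers of the gated cells summed to 40296 to 186207 CPM in total mRNA. Neutrophil markers summed to at most 185 CPM and endothelial markers to at most 37.5 CPM there. By mean total level, Apoe (57201 CPM) and Lyz2 (20536 CPM) made up most of the macrophage sum. Csf3r (81.1 CPM) made up most of the neutrophil sum. Tumour ER2 stood apart, with the lowest macrophage sum and the highest fibroblast (3335 CPM) and mammary epithelial (4288 CPM) sums in total mRNA. T2 had the next highest fibroblast sum, 2189 CPM, against at most 432 CPM in the other 11 tumours. In bulk libraries such as these, fewer cells of a type and less RNA per cell cannot be told apart.

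The sequences around the start codon are shown first, since polysome loading follows initiation there. They are GENCODE vM21 transcripts (build GRCm38), with 12 bases of the 5′ untranslated region and 6 bases of coding sequence on either side of the start codon, which is in capitals.
Klf2: acagtccctgccATGgcgctc
Klf3: gtggctgaaaggATGctcatg
Klf4: gcccccacattaATGaggcag
Klf6: catccagtttgcATGaaactt
Klf7: ggcagcagcagcATGgacgtg
Klf9: gtcgcccgcaccATGtccgcg
Klf10: aggcagccaaccATGctcaac
Klf13: ctagcccgcagcATGgcagcc
A purine lies 3 bases before the start codon in 6 of the 8, all but Klf4 and Klf6, as in 87% of 10935 tested genes. Klf2, Klf7 and Klf13 also have a G directly after it, the combination found in 45.7% of those genes. The letters do not divide the genes by polysome loading, because Klf2 and Klf13 were higher in polysomes and Klf7 was lower.

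Klf2 lies on chromosome 8 at 72319033 to 72321656, a compact gene of 3 exons. Its promoter is shown because MEF2 factors, which act below the kinase ERK5, are known inducers of Klf2. The RefSeq window (GRCm38.p6, chr8:72318812-72319111, plus strand) runs from 250 bases before to 50 bases after the annotated start. Capitals mark matches to the MEF2 site and to CACCC on either strand.
Klf2: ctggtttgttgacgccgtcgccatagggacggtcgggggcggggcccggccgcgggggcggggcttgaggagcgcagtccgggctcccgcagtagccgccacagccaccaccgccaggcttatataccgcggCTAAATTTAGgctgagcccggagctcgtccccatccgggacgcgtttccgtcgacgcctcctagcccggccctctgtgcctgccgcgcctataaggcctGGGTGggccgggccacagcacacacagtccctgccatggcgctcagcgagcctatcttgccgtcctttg
Klf3 is on chromosome 5 at 64803388 to 64832901, and its window (GRCm38.p6, chr5:64803271-64803570, plus strand) is shown because it holds the most CACCC matches of the 7 members found in the promoter table, 5, in capitals.
Klf3: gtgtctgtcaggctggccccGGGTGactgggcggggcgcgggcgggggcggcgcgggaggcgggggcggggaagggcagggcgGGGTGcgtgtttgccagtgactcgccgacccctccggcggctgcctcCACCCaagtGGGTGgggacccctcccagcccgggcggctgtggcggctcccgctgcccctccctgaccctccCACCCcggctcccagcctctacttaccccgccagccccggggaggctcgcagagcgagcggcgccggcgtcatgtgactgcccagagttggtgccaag
The MEF2 match begins 118 bases before the start in Klf2. It occurs in no other member with a window and in 3.19% of 32851 promoters of this length. CACCC occurs in Klf2, Klf3, Klf7, Klf9 and Klf13, as in 57.5% of promoters. These matches are letters in a window, and binding was not measured.

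Klf6 was the most abundant member in total mRNA when levels were divided by exonic length, the length of all annotated exons of a gene joined. Its median was 44.8 CPM per kb, ahead of Klf10 (19.2), Klf2 (10.8) and Klf13 (10.5). Klf7 (2.36), Klf3 (2.16), Klf4 (1.83) and Klf9 (0.487) followed. The ranges over the 13 tumours overlapped between every pair of neighbours in this order except Klf13 (6.69 to 21.4) and Klf7 (0.97 to 4.02). In polysome mRNA Klf2 came first, at a median of 53.6 CPM per kb, before Klf6 (32.8), Klf13 (20.9) and Klf10 (14.1). Klf3 (4.8), Klf4 (3.19), Klf7 (1.94) and Klf9 (1.02) were again the lower 4. Among 11127 tested genes with a length, the polysome median of Klf2 was at percentile 93.4 and its total median at percentile 74. The places of Klf3 and Klf2 in total mRNA turned with the length used. Klf3 has 11243 bases of exon but a principal transcript of 5221, and divided by the latter its medians were 4.65 in total mRNA, ahead of Klf7 (2.51), and 10.3 in polysome mRNA. Klf13 (12.3) then came before Klf2 (10.8) in total mRNA, and the ranges of all neighbours in that order overlapped. Klf6 stayed first in total mRNA and Klf2 in polysome mRNA with either length.

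**Figure D1:**
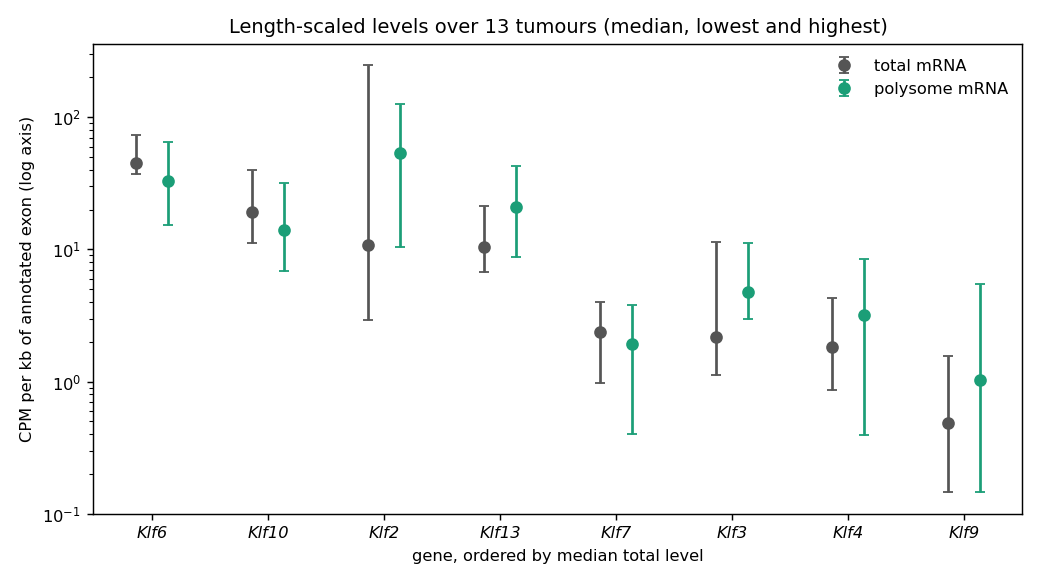
Levels in CPM per kb of annotated exon on a log axis for the 8 genes, ordered by their median in total mRNA; points are medians and bars run from the lowest to the highest of 13 tumours. Klf2 moves from the third place in total mRNA (10.8) to the first in polysome mRNA (53.6), and its total range reaches 247 through 1 tumour.

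The polysome library of each tumour was then compared with its total library. Of the 8 genes 7 passed the test, 4 higher in polysomes (Klf2, Klf3, Klf9, Klf13) and 3 lower (Klf6, Klf7, Klf10). The background was wide: 56.6% of 12109 tested genes passed, 22.6% higher and 34.0% lower, and the median gene lay at a log2 fold change of -0.338. The members' median was 0.59. The test was edgeR's quasi-likelihood test with the tumour as a block and Benjamini-Hochberg adjustment over all genes. Log2 fold changes are relative to the pool of each library, and those of Klf6, Klf7 and Klf10 were at percentiles 42.2, 40.6 and 45.2 of all genes, near the middle. Klf2, Klf3, Klf6 and Klf13 passed whichever single tumour was left out. Klf7, Klf9 and Klf10 did not. Leaving out T4 or ER2 left 4 of the 8 passing.

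**Figure D2:**
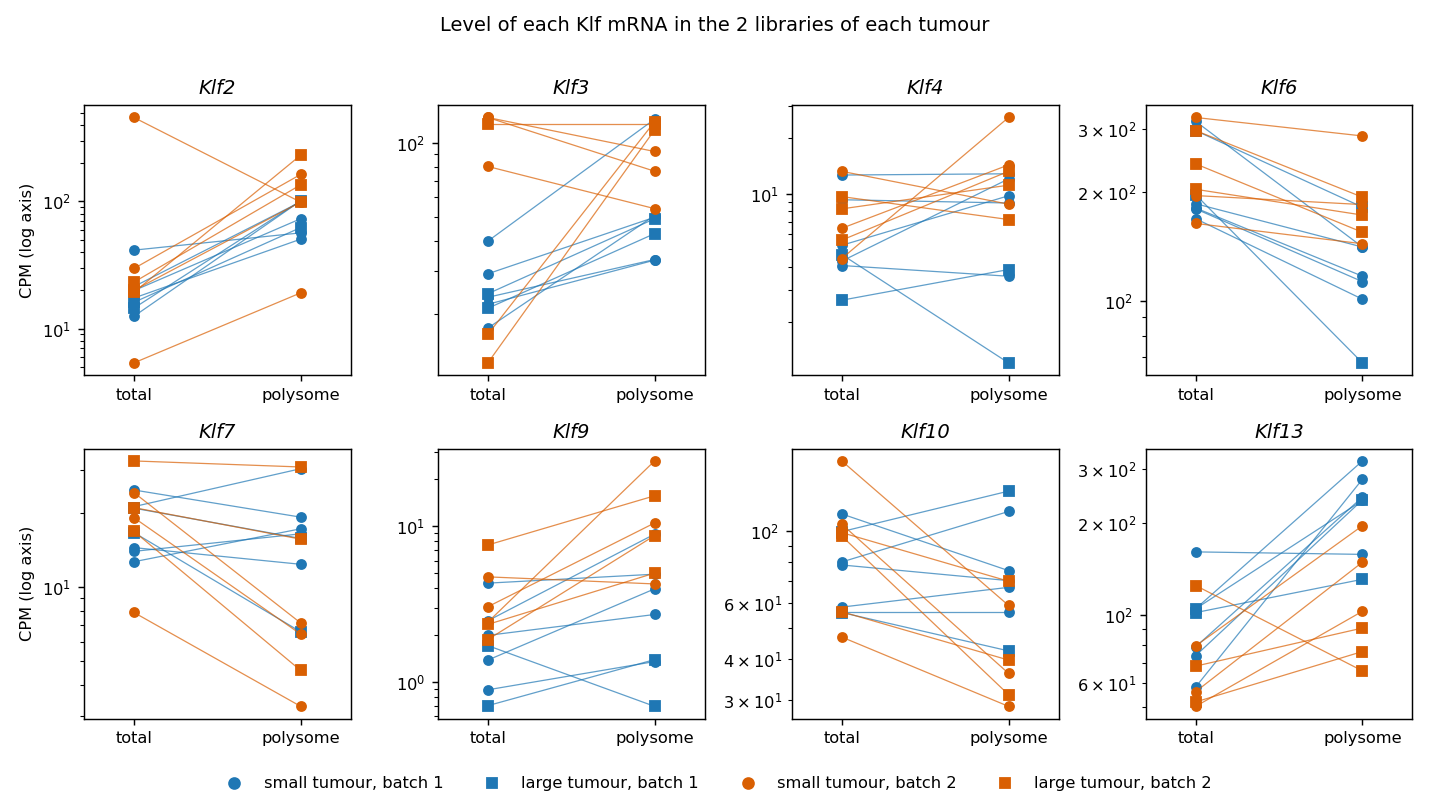
CPM on a log axis for each gene in the total and polysome library of each tumour, joined by a line; colour gives the batch and shape the size class. Klf2 lines rise in 12 of 13 tumours and Klf6 lines fall in all 13, while Klf3 lines of batch 2 divide into 2 steep rises, 1 level line and 3 falls.

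Klf2 had the largest change of the 8. In total mRNA its level was 5.38 to 457 CPM in the small tumours, with a median of 20.7. The large tumours T4, T22, LR1, LR2 and LR3 had 16.1, 14.5, 20, 19.3 and 23.2 CPM. In polysome mRNA the small tumours had 19.1 to 163 CPM (median 85.9) and the same large tumours 62.3, 101, 98.9, 231 and 135 CPM. Every tumour but ER3 was higher in polysomes. The log2 fold change was 2.07 (SE 0.31, edgeR adjusted p = 4.13e-06), higher in 12 of 13 tumours. In ER3 the total level was 457 CPM, against 5.38 to 41.4 in the other 12 tumours, while its polysome level, 98.8 CPM, was within the range of the others. The per-tumour difference there was -2.21 on the log2 scale, against 0.45 to 3.58 elsewhere. Without ER3 the fold change was 2.30. Within batch 1 it was 2.16 (adjusted p = 1.06e-05) and within batch 2 1.88 (adjusted p = 0.0203).

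Klf2 was not the only gene with its highest total level in ER3, but ER3 did not stand apart in the share of such genes. It had the highest total level of 9.6% of the 12109 tested genes, against 1.89% to 20.7% for the other tumours. ER1 (10.1%), LR1 (10.3%) and ER2 (20.7%) had larger shares than ER3. Such shares do not tell how far a level stood above the rest. By total level among the 13 tumours, ER3 ranked 1 for Klf4, 2 for Klf3 and Klf9 and 3 for Klf7. It ranked 8 for Klf6, 11 for Klf13 and 13 for Klf10. Endothelial markers, of a cell type in which Klf2 is abundant, summed to 13.1 CPM in ER3. That was inside the range of 6.74 to 37.5 CPM, with Cdh5 at 0.361 CPM. T and NK cell markers, for another Klf2-rich lineage, summed to 38.6 CPM in ER3, below the median of 43.2 CPM. Cd3e was at 0 there, as in T2 and T22. Over the 13 tumours Cd4 made up most of this list, at a mean of 57.1 CPM in total mRNA. Klrb1c had a mean of 3.39 CPM there and Cd3e 0.504 CPM, so the sum largely reports 1 gene. In ER3 the NK cell marker Klrb1c was at 3.29 CPM, above its median of 2.31 CPM. Its immediate early genes, which respond to tissue dissociation, had the second highest mean of the 13 tumours, 7.33 log2 CPM after 7.81 in ER1. In ER1 total Klf2 was 29.7 CPM. Over the 13 tumours total Klf2 and this mean had r = 0.43 (permutation p = 0.155, adjusted p = 0.375). The part of the immediate early response in the Klf2 level of ER3 was not tested.

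Klf4, the close relative of Klf2 that favours alternative activation in macrophages, was scarce. Total levels were 4.06 to 13.2 CPM (median 5.85) in small tumours and 2.63, 4.66, 5.58, 8.25 and 9.62 CPM in T4, T22, LR1, LR2 and LR3. Polysome levels were 3.55 to 25.9 CPM (median 10.9) in small tumours, and 3.86, 1.2, 13.2, 11.1 and 7.22 CPM in those large tumours. The difference was positive in 8 tumours and negative in 5. Polysome against total was 0.34 on the log2 scale (SE 0.36, edgeR adjusted p = 0.442) and did not pass. ER2 had the highest polysome level, 25.9 CPM, and T22 the lowest, 1.2 CPM.

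Klf6, an activator linked to inflammatory gene expression in macrophages, was lower in polysomes in every tumour. Total levels were 164 to 323 CPM (median 184) in small tumours and 297, 197, 297, 240 and 204 CPM in T4, T22, LR1, LR2 and LR3. Polysome levels were 101 to 287 CPM (median 141) in small tumours and 182, 67.2, 194, 155 and 173 CPM in those large tumours. The fitted log2 change was -0.62 (SE 0.16, edgeR adjusted p = 0.0018), lower in 13 of 13 tumours. The change was small in a background where 34.0% of genes passed as lower, but it varied little. The SD of the per-tumour difference was 0.41 on the log2 scale, at percentile 0.553 of all tested genes, whose median SD was 1.19. That ranking includes genes with far fewer reads than Klf6, and it was not repeated among genes of a like level. Batch 1 alone gave -0.87 (adjusted p = 0.0022) and batch 2 alone -0.30 (adjusted p = 0.397). The difference between batches, 0.60 (SE 0.32), did not pass the test (adjusted p = 0.199).

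Klf7, a factor best known from neurons and adipose tissue, gave -0.68 (SE 0.26, edgeR adjusted p = 0.0298). Its total level was 7.89 to 24.9 CPM (median 16.9) in small tumours and 21.0, 16.7, 16.9, 21.1 and 32.7 CPM in T4, T22, LR1, LR2 and LR3. Its polysome level was 3.27 to 30.4 CPM (median 14.4) in small tumours, and 15.8, 6.58, 4.58, 15.7 and 30.9 CPM in those large tumours. All 6 tumours of batch 2 were lower in polysomes, and 4 of 7 in batch 1. The call was lost without T4, T22, ER1, ER2, ER3 or LR1, with adjusted p between 0.0522 and 0.115, with RLE scaling (adjusted p = 0.0542) and with limma voom (0.0573).

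Klf3 recruits the corepressor CtBP and acts mainly as a repressor. Its total level in small tumours was 17.6 to 127 CPM (median 34.5), and it was 21.2, 24.3, 12.7, 16.6 and 120 CPM in T4, T22, LR1, LR2 and LR3. In polysomes it was 33.3 to 125 CPM (median 52.3) in small tumours and 42.7, 49.1, 113, 122 and 120 CPM in those large tumours. Its log2 fold change was 0.98 (SE 0.27, edgeR adjusted p = 0.00347), higher in 10 of 13 tumours with LR3, at 0.00, counted among them. Batch 1 was even, with all 7 tumours between 0.51 and 1.65. Batch 2 was divided: ER1, ER2 and ER3 were at -0.73, -0.57 and -0.46, LR3 was at 0.00, and LR1 and LR2 were at 3.14 and 2.87. Batch 2 alone therefore gave 0.78 with an adjusted p of 0.159, and batch 1 alone 1.07 (adjusted p = 0.00236).

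In batch 2 the total libraries carried the wider spread of Klf3, with a coefficient of variation of 66.9% against 28.2% in polysomes. There the total level of Klf3 was 127, 80.2 and 127 CPM in ER1 to ER3 and 120 CPM in LR3, but 12.7 and 16.6 CPM in LR1 and LR2. Polysome Klf3 in batch 2 was 54.0 to 122 CPM. In batch 1 the polysome libraries had the wider spread, 58% against 28.6%. Total Klf3 there was between 17.6 and 39.8 CPM and polysome Klf3 between 33.3 and 125 CPM. The highest of both was in T2, one of the 2 tumours with a high fibroblast sum, while polysome Klf3 in ER2, the other, was 54.0 CPM. Without T2 the polysome against total change of Klf3 was 0.91 (edgeR adjusted p = 0.00667). Total Klf3 was higher in batch 2 by 1.76 on the log2 scale (SE 0.46, edgeR adjusted p = 0.0224), the 1 member of 8 that passed, where 16.7% of 11671 genes passed, 11.1% higher and 5.66% lower. It did not pass without T15, T16, ER1 or LR3 (adjusted p 0.0529 to 0.064), nor without ER1, ER2 and LR1 together (1.94, adjusted p = 0.0731). DESeq2 also passed Klf2 (2.00, adjusted p = 0.017), as edgeR did without ER2 (2.26, adjusted p = 0.0426), and without ER3 the Klf2 estimate was 0.00.

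Klf9, Klf10 and Klf13 belong to the branch of the family that binds the corepressor Sin3A. Klf13, first described as an activator of the chemokine gene Ccl5 in lymphocytes, had total levels of 50.4 to 161 CPM (median 76.4) in small tumours. Its total level was 105, 102, 52.1, 125 and 68.2 CPM in T4, T22, LR1, LR2 and LR3. In polysomes it had 103 to 319 CPM (median 217) in small tumours and 237, 131, 76.1, 65.8 and 90.8 CPM in those large tumours. Its fitted log2 fold change was 0.84 (SE 0.20, edgeR adjusted p = 0.000863), higher in 11 of 13 tumours, with T19 at -0.03 and LR2 at -0.92. T2 had the highest polysome level, 319 CPM, and without it the change was again 0.84 (adjusted p = 0.00154). Batch 1 alone gave 1.17 (adjusted p = 0.00114) and batch 2 alone 0.65 (adjusted p = 0.0989).

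Klf9, induced by glucocorticoids and thyroid hormone, was the scarcest member, with 0.703 to 7.58 CPM in total mRNA. In total mRNA the large tumours T4, T22, LR1, LR2 and LR3 had 0.703, 1.71, 2.34, 1.87 and 7.58 CPM, and the small tumours had a median of 2.45. Polysome levels were 1.35 to 26.3 CPM (median 4.59) in small tumours, and 1.39, 0.696, 5, 8.71 and 15.7 CPM in those large tumours. The log2 fold change was 1.04 (SE 0.44, edgeR adjusted p = 0.0481), higher in 11 of 13 tumours. Its count in a library went down to 11 reads. The call stood in only 3 of the 13 fits that left out a tumour, those without T19, T22 or ER3, and adjusted p was up to 0.114 in the others. ER2, with the highest epithelial and fibroblast sums, also had the highest polysome level, 26.3 CPM, and without it the fold change was 0.97 (adjusted p = 0.0803).

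Klf10, an early gene of the TGF-beta response, had total levels of 46.9 to 165 CPM (median 79.4) in small tumours and 55.9, 99.6, 98.9, 96.5 and 56.2 CPM in T4, T22, LR1, LR2 and LR3. Its polysome level was 28.6 to 115 CPM (median 62.8) in small tumours and 42.5, 133, 69.9, 31.1 and 39.8 CPM in those large tumours. The log2 fold change over both batches was -0.51 (SE 0.18, edgeR adjusted p = 0.0191), lower in 9 of 13 tumours, but the batches differed. In batch 2 all 6 tumours were lower, by -0.50 to -1.63, and batch 2 alone gave -1.04 (adjusted p = 0.0155). In batch 1 the per-tumour values ran from -0.58 to 0.52, 4 of 7 above 0 with T3, at 0.00, counted among them, and batch 1 alone gave 0.06 (adjusted p = 0.845). The call was also lost without T4, ER2 or LR2 (adjusted p 0.0674, 0.0623 and 0.107).

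**Figure D3:**
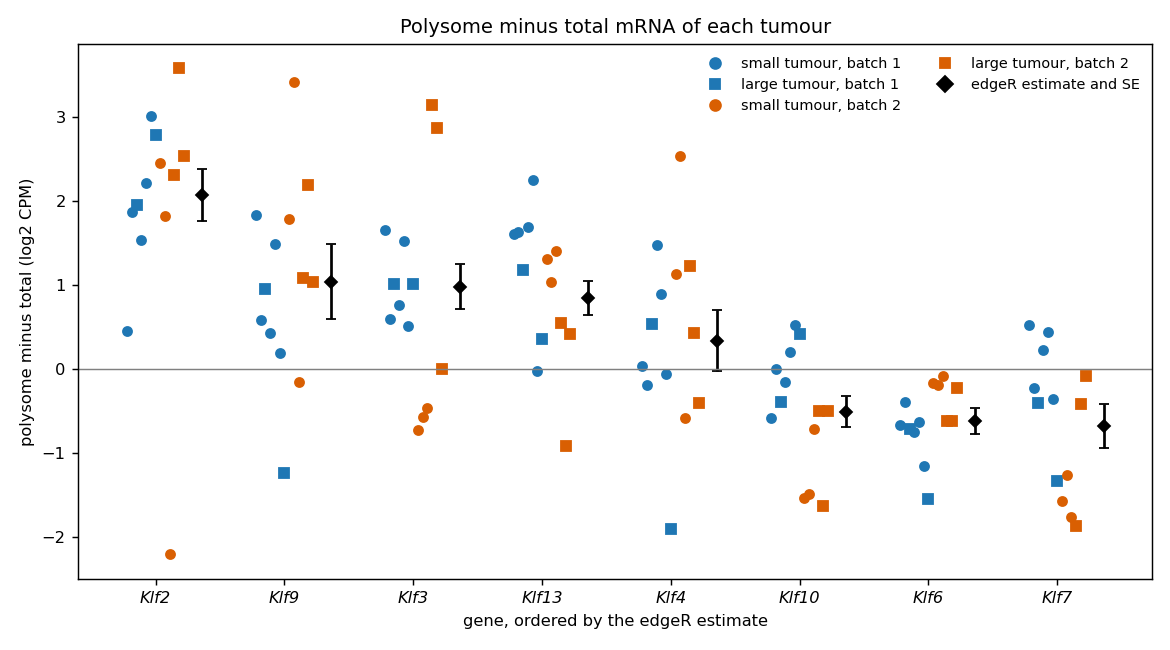
Polysome minus total, in log2 CPM, for each of 13 tumours (coloured by batch, shaped by size) with the edgeR estimate and its SE as a black diamond. Klf6 is below 0 in every tumour, Klf2 above 0 in all but ER3, and the batch 2 points of Klf10 and Klf7 lie wholly below 0.

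The test of the batch difference in polysome minus total passed for Klf10 alone of the 8, at -1.11 on the log2 scale (SE 0.36, edgeR adjusted p = 0.0355). Of all tested genes 17.4% passed, 10.5% higher and 6.95% lower. The ranges of the batches overlapped at the edges, since T2 of batch 1 was at -0.58. The call did not hold without T3, T15, T16, T19, T22, ER1, ER2 or LR2, where adjusted p was 0.0525 to 0.103, or without ER1, ER2 and LR1 (-0.90, adjusted p = 0.229). Klf7 gave -0.99 (SE 0.52, adjusted p = 0.197). The 18 immediate early genes, used as a sign of dissociation, were all lower in the same contrast, 8 of them past the test, with a median of -1.65. The part of that response in Klf10 was not tested.

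Tumour size was examined last, as large against small with the batch as a covariate. No member passed in total mRNA, in polysome mRNA or in polysome minus total by edgeR, DESeq2 or limma voom. Neither did any other gene by edgeR or limma voom, so that the background was 0% of 11671, 10933 and 12109 genes. DESeq2 passed 0, 152 and 129 genes. At an unadjusted p below 0.05 edgeR had 1, 1 and 2 members and 538, 1362 and 1385 genes.

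For Klf2 the total level of large tumours was -1.76 on the log2 scale relative to small ones (SE 0.80, edgeR adjusted p = 0.865). The estimate was -0.21 without ER3. In polysome mRNA it was 0.48 (SE 0.41, adjusted p = 0.663). Polysome minus total was 1.19 higher in large tumours (SE 0.62, adjusted p = 0.469), and 0.60 without ER3. The per-tumour difference was 1.95 to 3.58 in the 5 large tumours and -2.21 to 3.01 in the 8 small ones, so the ranges overlapped.

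For Klf3 polysome minus total was 1.31 higher in large tumours (SE 0.55, edgeR adjusted p = 0.384). It was 0.02 in batch 1 alone and 2.66 in batch 2 alone (adjusted p = 0.281), where LR1 and LR2 had the highest values. For Klf13 it was -0.96 (SE 0.41, adjusted p = 0.387). Its polysome level in large tumours was -0.65 relative to small ones (SE 0.28, adjusted p = 0.36).

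In batch 2, with 3 small and 3 large tumours, the ranges of polysome Klf3 (54.0 to 92.3 and 113 to 122 CPM) and polysome Klf13 (103 to 196 and 65.8 to 90.8 CPM) did not overlap. That is 2 of 8 members, where 23.4% of tested genes had ranges apart. The per-tumour difference was apart there for Klf3, Klf6 and Klf13, 3 of 8, against 20.1% of genes. In batch 1 only the difference of Klf7 was apart, where 9.3% of genes were. For polysome Klf13 the edgeR estimate of large against small was -0.47 in batch 1 alone (adjusted p = 0.972) and -0.95 in batch 2 alone (adjusted p = 0.259). Over both batches together no member had ranges apart between the size classes, where 0.00826% of genes had in total mRNA, 0.52% in polysome mRNA and 0.487% in the difference.

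The remaining members did not pass either. Klf4 was -0.53 in total mRNA (SE 0.43) and -1.15 in polysome mRNA (SE 0.56, edgeR adjusted p = 0.405). Klf9 was -1.12 in polysome mRNA (SE 0.71, adjusted p = 0.534). Klf6 in total mRNA was 0.14 (SE 0.24), the tightest of the size estimates. Klf7 and Klf10 were 0.24 (SE 0.32) and -0.23 (SE 0.30) in total mRNA. A miss of the threshold at these errors does not show that the levels are alike.

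**Figure D4:**
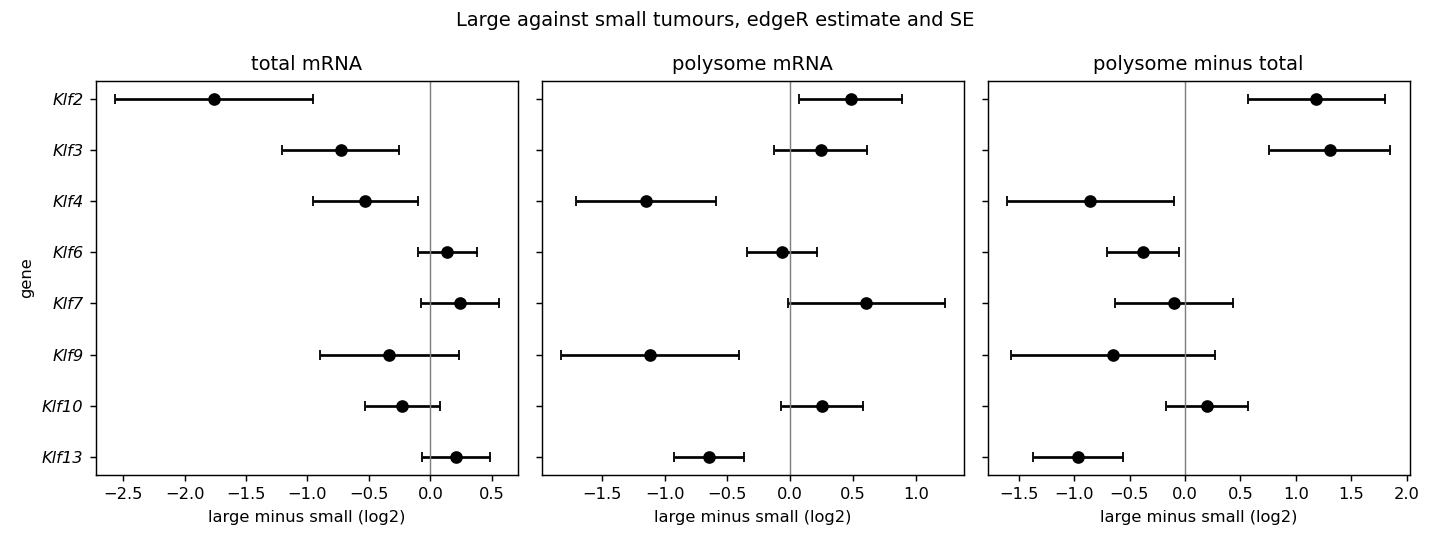
Large minus small, in log2, for total mRNA, polysome mRNA and polysome minus total, as edgeR estimates with their SE; the horizontal scales differ between panels. Klf2 has the widest error in total mRNA (estimate -1.76), and no estimate passed the test.

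The 8 transcripts differ in their make-up. Coding GC content was 70.7% in Klf2 and 71.5% in Klf13, at percentiles 99.6 and 99.7 of 11091 tested genes, whose median was 53%. Klf4 had 63.1% and Klf9 59.2%. The members lower in polysomes had 51% (Klf6), 54% (Klf10) and 56% (Klf7), but Klf3, which was higher, had 53.9%. Klf2 has a 5′ untranslated region of 45 bases, at percentile 9.48, while those of Klf3, Klf7 and Klf9 were 443, 490 and 529 bases, so that long and short leaders occurred on both sides. These are descriptions over 8 genes.

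The 3′ untranslated regions were searched for ATTTA, the core of AU-rich elements that speed mRNA decay. All 8 had at least 1 match, as had 67.5% of tested genes. Klf7, with the longest region (6269 bases), had 18, Klf9 8, Klf3 and Klf6 7 each, Klf10 4 and Klf13 3. Per kb of the region Klf7 had 2.87, Klf10 2.68, Klf9 2.48, Klf6 2.25 and Klf3 1.87. The median of tested genes with such a region was 1.26 per kb. Klf2 had 1.35, Klf4 1.02 and Klf13 0.58 per kb. Klf2 and Klf4 had 1 match each, shown with its surroundings, the match in capitals.
Klf2: aacagactgctATTTAttggaccttag
Klf4: atgtaatataaATTTAagcaaacttct
The longer element TTATTTATT was in none of the 8 and in 7.57% of tested genes. The Pumilio motif TGTANATA, N being any base, was found 3 times in Klf9, at percentile 97.5. It was found once each in Klf2, Klf3, Klf6 and Klf13, and at least once in 25.4% of tested genes.

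Of the 9 other Krüppel-like factor rows only 4 had enough counts to be tested. Klf16 (1.54, SE 0.37, edgeR adjusted p = 0.00114) and Klf11 (0.74, SE 0.26, adjusted p = 0.0177) were higher in polysomes, each in 11 of 13 tumours. For these and the Sp factors below, the background was 56.6% of 12109 genes passing, 22.6% higher and 34.0% lower. Klf5, an epithelial member, and Klf8 were not called. Klf5 reached 38.6 CPM in total and 36.4 CPM in polysome mRNA of ER2, against medians of 0.637 and 1.22 CPM, and ER2 was the tumour with the highest epithelial sum. Klf1, Klf12, Klf14, Klf15 and Klf17 had 72, 31, 39, 19 and 11 reads over all 26 libraries. Of the Sp factors, relatives that bind the same boxes, Sp1 was higher in all 13 tumours (2.00, SE 0.23, adjusted p = 6.80e-08), Sp2 was also higher (0.79, adjusted p = 0.00698) and Sp3 was lower (-1.08, adjusted p = 0.000774) among 5 tested. For Sp2 and Sp3 the batches differed in polysome minus total, by -2.03 (edgeR adjusted p = 0.0051) and 1.71 (adjusted p = 0.0181), batch 2 against batch 1.

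Among 12 cofactors 6 were higher in polysomes and 2 lower, with a median of 0.47. That is 8 of 12 passing, where 56.6% of all genes passed, 22.6% higher and 34.0% lower. The higher ones included the CtBP corepressor Ctbp1 (1.43, SE 0.22, edgeR adjusted p = 4.85e-06) and the acetyltransferase Crebbp (1.13, SE 0.21, adjusted p = 6.74e-05). The 2 lower ones were both deacetylases, Hdac1 (-2.06, adjusted p = 3.79e-09) and Hdac3 (-1.06, adjusted p = 3.98e-05), and both were lower in all 13 tumours.

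Of 15 genes upstream of the family 9 were higher in polysomes and 2 lower, with a median of 1.10 against -0.338 over all genes, of which 22.6% passed as higher and 34.0% as lower. Map3k3, a kinase at the head of the ERK5 cascade that induces Klf2, had 2.53 (SE 0.21, edgeR adjusted p = 7.12e-10). Mef2d, a MEF2 factor of the kind whose site is shown above, had 2.25 (SE 0.24, adjusted p = 3.15e-08), while Mef2c was lower (-0.53, adjusted p = 0.0232). Mapk7, which encodes ERK5, and Mef2a were not called, at 0.05 and 0.08. Of 6 genes of the TGF-beta pathway, Smad7 (2.31, SE 0.24, adjusted p = 1.81e-08) and Tgfbr2 (1.56, SE 0.21, adjusted p = 1.13e-06) were higher in all 13 tumours, and Smad4 (1.47) and Smad3 (1.10) in 12. Smad2, a signal transducer like Smad3, was lower in all 13 (-0.90, SE 0.21, adjusted p = 0.000635), and the receptor gene Tgfbr1 was not called (0.07, adjusted p = 0.753).

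Of 7 ubiquitin ligases tested that act on these proteins, Smurf1 was higher (1.87, SE 0.29, edgeR adjusted p = 5.47e-06) and Btrc lower (-2.52, SE 0.38, adjusted p = 4.23e-06), and the other 5 did not pass. Of 18 genes known as targets 6 were higher and 4 lower, with a median of -0.32. Both the share passing, 10 of 18, and the median were near those of all genes, 56.6% and -0.338. S1pr1, a direct Klf2 target in lymphocytes, had 2.14 (SE 0.22, adjusted p = 1.20e-08), Bcl6 1.95 (SE 0.21, adjusted p = 3.82e-08) and Retnla, of the alternative activation programme, 2.37 (SE 0.27, adjusted p = 6.61e-08). Ccl5, the Klf13 target, had -1.24 (SE 0.67, adjusted p = 0.114).

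**Figure D5:**
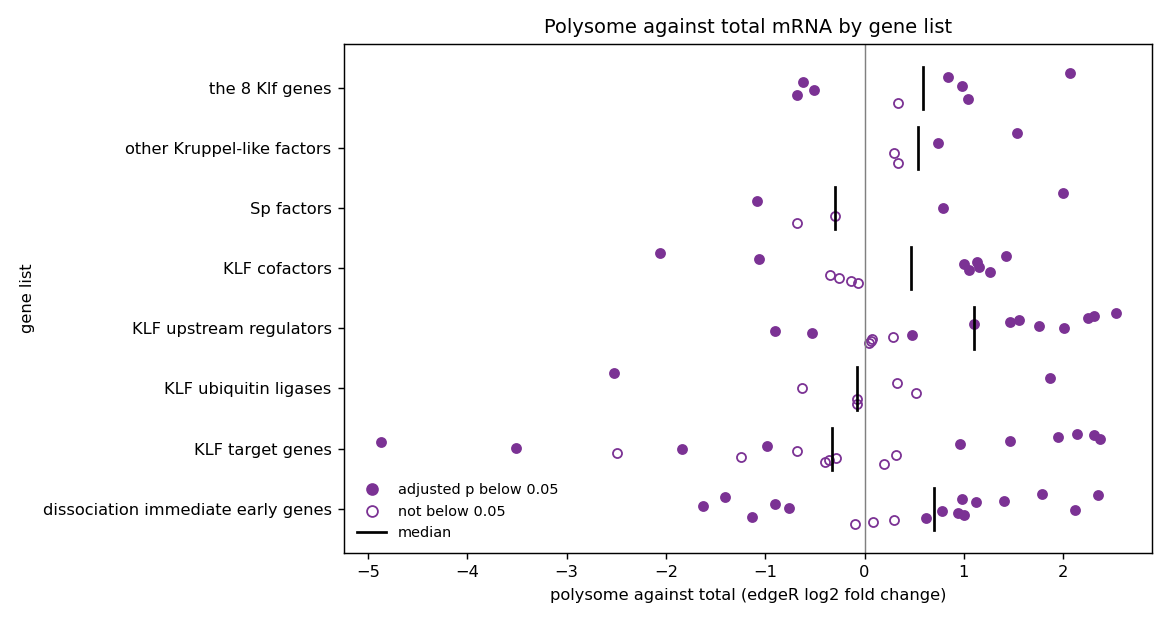
Log2 fold change of polysome against total for every tested gene of 8 lists, filled where the adjusted p was below 0.05 and open otherwise, with the median of each list as a black line. The 8 Klf genes divide into 4 higher, 3 lower and 1 open point, and the genes upstream of the family have the highest median, 1.10.

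Total levels of the 8 genes were set against the mean log2 CPM of the 18 immediate early genes, a family of 8 correlations over 13 tumours. None passed after adjustment. Klf3 had r = 0.57 (permutation p = 0.0424, adjusted p = 0.34) and rho = 0.28 (permutation p = 0.352). It had r = 0.42 without ER1 and T22, the tumours farthest from the median score, with -0.44 within batch 1 and 0.62 within batch 2. Klf2 had r = 0.43 (permutation p = 0.155, adjusted p = 0.375) and rho = 0.33. The others had r between -0.39 and 0.40, and the smallest adjusted p for rho was 0.631.

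The genes whose levels over the 26 libraries were most like each member were found from the root mean square difference of centred log2 CPM, with 8007 or 8008 candidates whose mean over all libraries reached 10 CPM. The value is in log2 units, and 0 would mean the same pattern. For Klf2 these were Cebpa (0.714), Adam15 (0.832) and Arl8a (0.839), against a median of 1.73 for all genes. Cebpa, a myeloid transcription factor, Adam15 and Arl8a also peaked among total libraries in that of ER3, at 196, 783 and 117 CPM. In the other total libraries they had 4.74 to 54.5, 92.1 to 351 and 12.1 to 42.8 CPM. For Klf3 they were Tmem248 (0.421), the joint row of Cbarp and Stk11 (0.494) and Abhd17a (0.56), against 1.42. For Klf6 they were Usp3 (0.384), Chmp2a (0.399) and Bnip3l (0.405), against 1.05. Klf10 was nearest to Fech (0.41) and Bid (0.428), and Klf13 to B4galt1 (0.457). Klf4, Klf7 and Klf9 had nearest genes at 0.661 (Ric8b), 0.617 (Gltp) and 0.796 (Irak1). No member was among the 3 nearest of another, but Klf4 and Klf9 could not be, since their means were below 10 CPM.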

How the data were processed

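Per the labels, macrophages of 13 mouse tumours gave 13 total and 13 polysome SmartSeq2 libraries. Each file holds 2 measures, and per the file headers these are read counts (whole numbers, as the authors deposited them) and TMM-scaled log2 values. The submitters' processing notes name mm10, HISAT2, HISAT and limma without saying what each was used for. How reads were counted is not given in the sources used here. SmartSeq2 does not mark the strand, so antisense reads cannot be told apart. The deposited log2 values, present for 10472 of 19549 rows, equal log2 CPM of the count plus 0.5 shifted by 1 constant per library (largest deviation 1.01e-13), and were only checked.

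The counts were filtered with filterByExpr, scaled by TMM and tested with edgeR 4.0.16 (robust quasi-likelihood, Benjamini-Hochberg adjustment, threshold 0.05). Polysome against total was fitted over 26 libraries with the tumour as block and terms for RNA source by batch and by size. Both libraries of a tumour came from 1 sorted population per the labels, and their deviations correlated (median r 0.249, lowest 0.0372, against -0.0167 between tumours). Without that block Klf7 (-0.45, adjusted p = 0.225) and Klf10 (-0.49, adjusted p = 0.0684) did not pass in polysome against total, nor Klf10 in the batch contrast (-1.22, adjusted p = 0.0705). Size contrasts within 1 RNA source had a batch term. SE is the estimate divided by the square root of F. For the differences of single tumours, 1 was the prior count added before taking log2 CPM. Correlations used 100000 resamples in scipy. Alternatives were RLE and upper-quartile scaling, other filters, DESeq2 1.42.0, limma voom 3.58.1, single batches, no block, and leaving out tumours. Levels per kb used the length of all GENCODE vM21 exons of a gene joined, and the principal transcript's length as an alternative chosen after seeing the data. The fit was tested on simulated data.

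Features came from the principal GENCODE vM21 transcript and promoters from RefSeq GRCm38.p6 (7 of 8 members matched). The named genes were all members, up to 4 genes of each list by p and up to 3 of the nearest genes per member (1 of them is not reported here), with a few list genes added after their values were seen (Sp2, Mef2a, Mef2c, Mapk7, Smad2, Smad3, Smad4, Tgfbr1, Ccl5, Klf5 and Klf8). The members and lists were chosen with earlier results of these data known. Precision is limited by the tumours' number and, for Klf4 and Klf9, by read depth.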

Additional observations from a re-analysis of the deposited data

Results flagged for a closer look

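Among 48 groups of 5 or 8 tumours examined for a single value far from the rest, 3 had one, where chance gives about 1 in 20. Total Klf2 in ER3 was 8.84 log2 CPM, and the other 7 small tumours were between 2.44 and 5.37. Total Klf3 in LR3 was 6.91 log2 CPM, and the other 4 large tumours were between 3.68 and 4.60. Polysome Klf6 in T22 was 6.07 log2 CPM, and the other 4 large tumours were between 7.28 and 7.60.

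In batch 2 polysome minus total Klf3 was below 0 in all 3 small tumours and at or above 0 in all 3 large ones, and the means differed by 2.59 on the log2 scale. The edgeR fit of batch 2 alone gave 2.66 with an adjusted p of 0.281, so the difference did not pass. LR3 lay at 0 to 2 decimals. Polysome minus total Klf10 differed between the batches by -1.11 (edgeR adjusted p = 0.0355).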

How the results depend on the processing

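In polysome against total 7 members passed. The count was 4 with no filter on low counts, 4 without ER1, ER2 and LR1, 4 in batch 1 alone, 3 in batch 2 alone and 4 to 7 when 1 tumour was left out. Without the replicate block it was 5. In the batch contrast of polysome minus total, where 1 member passed, it was 0 with no filter, 0 without the block, 0 without ER1, ER2 and LR1, and 0 to 1 when 1 tumour was left out. In total mRNA between batches, where 1 passed, it was 2 with DESeq2, 0 without ER1, ER2 and LR1, and 0 to 2 when 1 tumour was left out. Genes passing ranged from 3606 (batch 2 alone) to 7542 (DESeq2) in polysome against total, from 865 (without ER1, ER2 and LR1) to 3120 (DESeq2) in the batch contrast, and from 5 (without ER1, ER2 and LR1) to 3185 (DESeq2) in total mRNA between batches.

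Signs turned only for values that missed the threshold, with the exception of Klf10 in polysome against total, 0.062 in batch 1 alone, where Klf4 was -0.068. In the size contrast of polysome minus total, Klf7 became 0.11 with limma voom, 0.26 without the block and 0.75 in batch 2 alone, and ran from -0.31 to 0.29 when 1 tumour was left out. Without ER1, ER2 and LR1, Klf10 was -0.05 in that contrast, 0.18 in total mRNA by size and -0.31 in total mRNA by batch. There Klf4 was -0.12 in the batch contrast of polysome minus total, and Klf6 was -0.11 in total mRNA by batch. In polysome mRNA by size, Klf3 was -0.14 without those tumours and -0.40 in batch 1 alone, Klf7 was -0.087 and -0.82, and Klf6 was 0.058 with no batch term. Klf9 in total mRNA by size was 0.20 in batch 2 alone and 0.074 with no batch term. Leaving out 1 tumour moved polysome mRNA by size from -0.38 to 0.12 for Klf6 and from -0.072 to 0.49 for Klf10, and total mRNA by size from -0.41 to 0.008 for Klf10. It moved the batch contrast of polysome minus total from -0.71 to 0.38 for Klf2, and total mRNA by batch from -0.11 to 0.26 for Klf6 and from -0.055 to 0.40 for Klf7. The cause was not tested.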
